A study of Mus musculus with 9 samples.

Results

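The wild-type H3K4me3 intervals in the centromere-proximal 10 Mb of the autosomes are the subject here. They were taken by position alone, as the intervals of the wild-type peak list on chromosomes 1 to 19 whose start lies below 13 Mb. The mm10 assembly leaves the 3 Mb at the centromere end of each mouse chromosome without sequence. There were 1189 such intervals, out of 17797 on the autosomes and 18427 in the whole list, which leaves 16608 autosomal intervals as the rest. H3K4me3 and H3K36me3 (histone H3 trimethylated at lysine 4 or lysine 36) were profiled by chromatin immunoprecipitation and sequencing in spermatocytes of mice 14 days after birth. The genotypes were wild type (PRDM9-WT, strain C57BL/6J) and 2 homozygous mutants on that strain, in which glutamate 360 of PRDM9 is replaced by proline (EP, genotype PRDM9-EP/EP, strain C57BL/6J-Prdm9<em2Kpgn>/Kpgn) or by lysine (EK, genotype PRDM9-EK/EK, strain C57BL/6J-Prdm9<em3Kpgn>/Kpgn). The labels call each substitution a severe hypomorph of the enzyme. Each genotype had 2 H3K4me3 libraries and 1 H3K36me3 library.

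PRDM9 is a meiotic DNA-binding protein whose zinc fingers recognise a sequence and whose PR/SET domain places H3K4me3 and H3K36me3 on the flanking nucleosomes. The sites that carry both marks are where the double-strand breaks of meiotic recombination are preferentially made. Mouse chromosomes are telocentric, so the centromere sits at the very beginning of each chromosome, and crossovers close to a centromere are generally rare in mammals.

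The deposited lists give positions only, 1 list per genotype for H3K4me3 and 1 for sites with both marks. No value below therefore has an error between replicates, the read depth behind an interval is unknown, and intervals and tests cover the sampling of intervals, which are not replicates of a genotype. The lists were confined by the authors to known PRDM9-dependent sites. An interval is called kept in a mutant when an interval of that mutant's H3K4me3 list overlaps it by at least 1 bp, and double-marked when an interval of the genotype's list of sites with both marks does. Per the labels, 6 of the 9 libraries were re-analysed earlier data, and for H3K36me3 the wild-type library was earlier data while both mutant libraries were new. For H3K4me3, the wild-type and EP libraries were earlier data and EK had 1 earlier and 1 new library, and these labels do not say which libraries were made together. For the wild type against the mutants in H3K36me3, genotype cannot be told apart from earlier or new data. For H3K4me3, the wild-type and EP lists were copied from an earlier series, while the EK list pools 1 earlier and 1 new library. Genotype therefore cannot be told apart from the origin of the data for EK against EP or wild type in H3K4me3 either.

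Of the 1189 proximal intervals, 17 (1.43%, rest 0.951%) touched the annotated promoter window of a RefSeq gene (250 bases before to 50 bases after a start site, assembly GRCm38.p6). These shares were not compared by a test. How often the 17 were kept is described further on. The 250 bases before the start site are printed 5′ to 3′ in the gene's direction for 4 of the genes, to show what lies under kept and lost intervals. They were chosen after their values were seen, from 10 whose whole stretch lies inside the wild-type interval: the 3 protein-coding genes among these and 1 noncoding gene. The interval was kept in both mutants at Tcirg1 (chr19:3905231-3905480, minus strand), which encodes a subunit of the vacuolar proton pump, and at Calcr (chr6:3764714-3764963, minus strand), the calcitonin receptor. It was lost in both at Mmp20 (chr9:7627981-7628230, plus strand), a matrix metalloproteinase of tooth enamel, and at the long noncoding RNA gene Gm51980 (chr12:5282202-5282451, plus strand). Capitals mark CpG dinucleotides.
Tcirg1: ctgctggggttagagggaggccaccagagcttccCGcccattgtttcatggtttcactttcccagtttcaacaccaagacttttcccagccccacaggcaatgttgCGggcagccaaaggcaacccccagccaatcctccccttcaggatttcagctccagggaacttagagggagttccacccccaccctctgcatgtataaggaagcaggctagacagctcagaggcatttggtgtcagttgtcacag
Calcr: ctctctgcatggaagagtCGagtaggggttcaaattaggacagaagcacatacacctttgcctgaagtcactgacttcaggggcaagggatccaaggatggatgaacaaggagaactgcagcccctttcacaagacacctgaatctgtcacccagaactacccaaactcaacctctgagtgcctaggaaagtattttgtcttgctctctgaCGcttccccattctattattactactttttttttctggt
Mmp20: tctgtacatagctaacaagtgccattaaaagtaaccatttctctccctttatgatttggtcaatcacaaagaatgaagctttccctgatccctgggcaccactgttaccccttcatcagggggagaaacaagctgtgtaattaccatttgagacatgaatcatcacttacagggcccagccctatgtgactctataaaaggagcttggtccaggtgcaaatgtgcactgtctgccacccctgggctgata
Gm51980: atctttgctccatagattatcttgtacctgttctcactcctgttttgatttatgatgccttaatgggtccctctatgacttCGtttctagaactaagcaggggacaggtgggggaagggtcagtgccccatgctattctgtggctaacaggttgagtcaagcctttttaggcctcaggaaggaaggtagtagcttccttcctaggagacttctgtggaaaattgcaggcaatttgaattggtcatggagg
These stretches held 2, 2, 0 and 1 CpG. Over all 17 windows the median was 2 where the interval was kept in a mutant and 1.5 where it was lost. Over all 32851 promoter windows in the table the median was 6 CpG in the same 250 bases, and 81.2% of windows held at least 2, the count at Tcirg1 and Calcr. Dnmt3a, whose interval begins after the start site and was kept in both mutants, held 40 CpG in its 250 bases, none of which lay in the interval.

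H3K4me3 was kept at fewer proximal intervals than elsewhere in EP. EP kept 194 of the 1189 (16.3%, 95% Wilson interval 14.3 to 18.5%), against a background of 19.8% over all autosomal intervals and 3334 of 16608 in the rest (20.1%, 19.5 to 20.7%). The difference was -3.76 percentage points (95% Newcombe interval -5.84 to -1.47). It passed the threshold (adjusted p = 0.00697 by Fisher's exact test, with adjustment after Benjamini and Hochberg over 9 tests). It did not pass for the first 5 Mb (-3.62), the first 20 Mb (-2.40), narrow wild-type intervals alone (-2.13), within deciles of width (-2.67) or against the next 10 Mb (-2.91). EK kept 187 of the 1189 (15.7%, 13.8 to 17.9%), against a background of 17.7% and 17.9% in the rest (17.3 to 18.5%). That difference was -2.16 percentage points (-4.21 to 0.0925) and did not pass (Fisher's exact test, adjusted p = 0.139). It passed with wide wild-type intervals alone (-4.52) and with every list limited to its wider intervals (-3.74). The 2 genotypes' differences had the same sign. They were compared over the intervals kept in 1 mutant only, of which EP held 55 of 103 in the proximal windows (53.4%) and 941 of 1519 elsewhere (61.9%), a difference that did not pass (Fisher's exact test, p = 0.0942). It passed without chromosome 16 (-12.6 percentage points) or 19 (-11.3 percentage points), by the same exact test, and its sign turned within deciles of width (2.92) and with wide (2.73) or narrow (2.11) wild-type intervals alone.

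**Figure D1:**
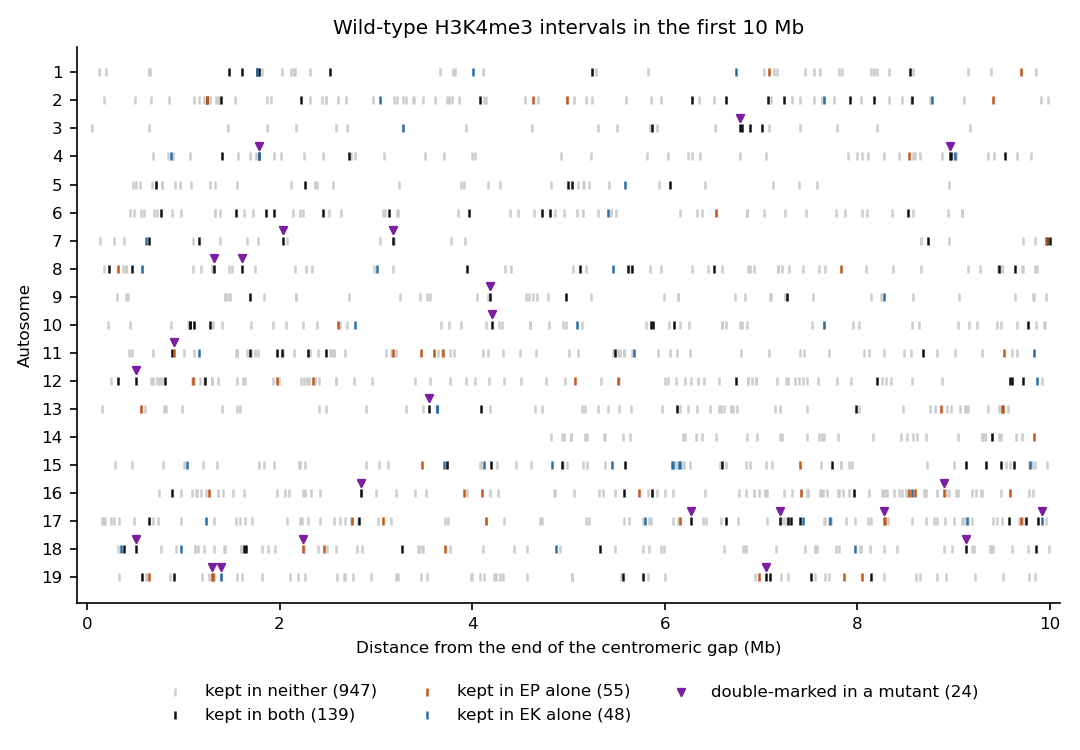
Position of every wild-type H3K4me3 interval in the first 10 Mb of sequence of each autosome (vertical axis), plotted as distance from the end of the centromeric gap in Mb, coloured by the mutant H3K4me3 lists that overlap it. Grey ticks (947 intervals kept in neither mutant) fill each row, black ticks mark 139 kept in both, and triangles mark the 24 that were double-marked in EP or EK.

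Most proximal intervals were lost in both mutants. There were 947 kept in neither (79.6%, 77.3 to 81.8%), against a background of 76.7%. Both mutants kept 139 (11.7%, background 14.2%), EP alone kept 55 (4.63%, background 5.6%) and EK alone kept 48 (4.04%, background 3.52%). Within the proximal windows, the 55 and 48 intervals particular to a single mutant's list did not differ detectably in number (exact McNemar test between 1 list each, p = 0.555). The same test passed with wide wild-type intervals alone, at 7.01 percentage points (EP minus EK), and with every list limited to its wider intervals. With narrow wild-type intervals alone the sign turned (-4.79), so the near-equal totals joined opposite differences by width. Of the intervals kept in EP, 71.6% were also kept in EK (64.9 to 77.5%), the rest giving 71.8%. Of those kept in EK, 74.3% were also kept in EP (67.6 to 80.1%), the rest giving 80.5%.

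As an estimate, the difference was larger against the other end of the chromosomes, whose intervals are also part of the rest. Whether it exceeded the difference from the rest was not tested. Of the 1378 intervals in the distal 10 Mb of the autosomes, EP kept 21.2% (19.1 to 23.4%) and EK 19.01% (17.0 to 21.2%). The proximal minus distal difference was -4.87 percentage points in EP (-7.87 to -1.84, Fisher's exact test, adjusted p = 0.00518 over 3 tests). This EP call ended with narrow wild-type intervals alone. For EK the proximal minus distal difference was -3.29 percentage points (-6.20 to -0.338, Fisher's exact test, adjusted p = 0.0489). Leaving out any of 9 autosomes (5, 6, 8, 10, 11, 13, 14, 16 or 19) ended the EK call, whose difference then lay between -3.25 and -2.26.

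Along the autosomes, the share kept in EP was lowest in the proximal window. Over the 16 successive 10 Mb bins with at least 200 intervals, the other 15 bins lay between 18.3 and 22.4% for EP. For EK the other bins lay between 15.5 and 20.4%, and the bin from 43 to 53 Mb was below the proximal one. In the next window, from 13 to 23 Mb, EP kept 219 of 1139 (19.2%, 17.0 to 21.6%) and EK 199 (17.5%, 15.4 to 19.8%). Against that neighbour the proximal difference was -2.91 percentage points in EP and did not pass (Fisher's exact test, adjusted p = 0.220). Inside the window there was no steady order. In steps of 2 Mb from the gap outward, EP kept 18.6, 14.6, 15.5, 14.3 and 18.04% and EK 19.01, 11.7, 17.4, 15.1 and 14.9%, on 207 to 263 intervals each. The step nearest the centromere thus had the highest share for both mutants, with Wilson intervals that overlapped those of every other step.

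**Figure D2:**
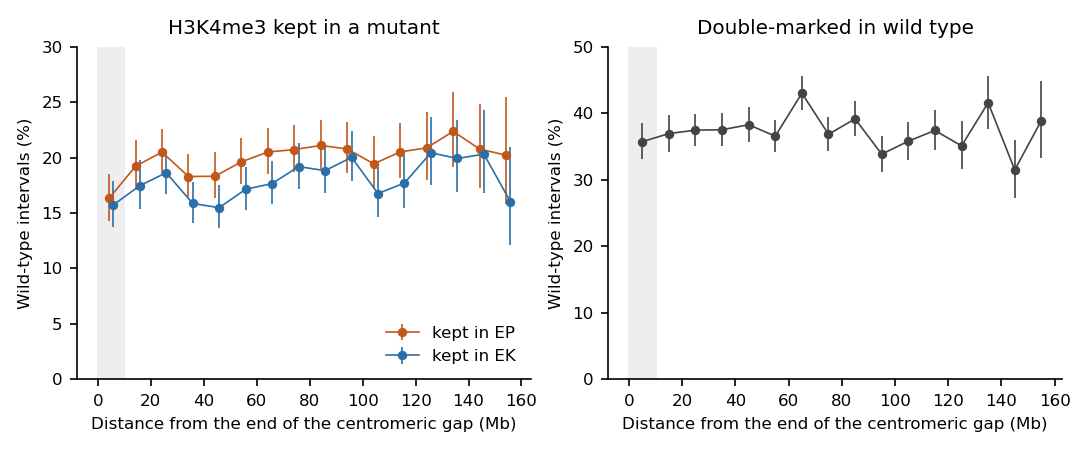
Share of wild-type intervals (percent, vertical axis) kept in EP or EK (left) and double-marked in wild type (right) by distance from the end of the centromeric gap in 10 Mb bins (horizontal axis, Mb), with 95% Wilson intervals as bars and the proximal window shaded. The EP point of 16.3% is the lowest of 16 bins, while the wild-type double-marked share of 35.7% lies within the range of the others, 31.5 to 43.0%.

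Proximal intervals were also somewhat narrower than the rest taken as a whole, though not than the distal ones. Their median width was 1083 bp (interquartile range 804 to 1455 bp, longest 3478 bp), against 1128 bp in the rest (827 to 1529 bp, longest 5524 bp). At least as wide as the autosomal median of 1125 bp were 542 of the 1189 (45.6%, 42.8 to 48.4%), 45.1% of the distal 10 Mb and 50.4% of the rest, a difference of -4.79 percentage points (-7.70 to -1.85, Fisher's exact test, adjusted p = 0.00697). It did not pass for the first 20 Mb (-1.94) or against the next 10 Mb (-5.69). Kept shares varied strongly with width: in both mutants the narrowest proximal intervals were kept most often, and in EP the widest came next. Compared within deciles of wild-type width, the proximal difference for EP was -2.67 percentage points (odds ratio 0.804, 95% interval 0.677 to 0.955) and no longer passed after adjustment (Mantel-Haenszel test, n = 1189 and 16608 intervals, p = 0.0120, adjusted p = 0.0956). For EK it was -2.17 percentage points (odds ratio 0.828, 0.693 to 0.988, Mantel-Haenszel test, n = 1189 and 16608 intervals, adjusted p = 0.103).

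The difference was largest among the broadest intervals. In 5 equal classes of wild-type width, taken over all autosomal intervals, the widest class (1635 to 5524 bp) held 195 proximal intervals. EP kept 46 of these (23.6%, 18.2 to 30.02%), against 1212 of 3365 in the rest (36.02%, 34.4 to 37.7%). EK kept 15 (7.69%, 4.72 to 12.3%), against 539 (16.02%, 14.8 to 17.3%). The differences of -12.4 (-18.1 to -5.80) and -8.33 percentage points (-11.6 to -3.56) both passed (Fisher's exact tests, adjusted p = 0.00370 and 0.00538 over 10 tests). Neither passed for the first 20 Mb (-6.36 and -4.71) or the first 5 Mb (-12.4 and -9.99). In the 4 narrower classes the differences ran from -4.87 to 1.98 percentage points and none passed (Fisher's exact tests, lowest adjusted p = 0.310), nor was any below 0.05 unadjusted. The odds ratios differed across the 5 classes in EP (Breslow-Day test, n = 1189 and 16608 intervals, p = 0.0216) and in EK (p = 0.0438). Widths differed inside the widest class too, with a median of 1885 bp proximally and 1944 bp in the rest and 90th percentiles of 2313 and 2594 bp. Compared within 10 finer bins of width, the differences there were -5.60 (EP) and -3.68 (EK) percentage points and did not pass (Mantel-Haenszel tests, n = 195 and 3365 intervals, p = 0.0524 and 0.0838). Against the next 10 Mb alone, the widest-class differences of -11.8 (EP) and -7.14 (EK) did not pass (Fisher's exact tests, adjusted p = 0.121 and 0.140). These tests of width classes were chosen after the lists were seen.

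**Figure D3:**
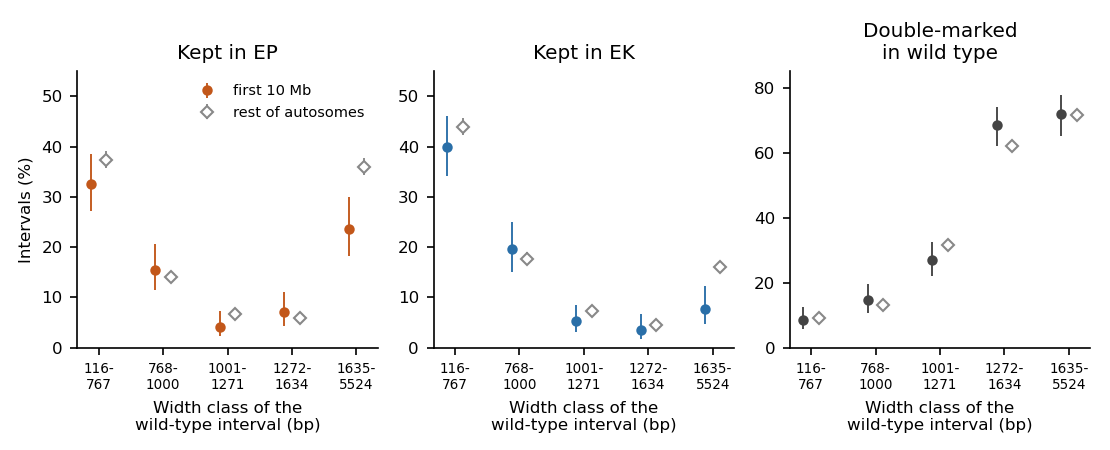
Share of wild-type intervals (percent) kept in EP, kept in EK and double-marked in wild type, by 5 classes of wild-type width (bp), for the proximal windows (filled circles) and the rest of the autosomes (open diamonds), with 95% Wilson intervals as bars. In the widest class the proximal points for EP (23.6%) and EK (7.69%) lie below those of the rest (36.02 and 16.02%), while the double-marked shares are 71.8 and 71.5%.

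Among the proximal intervals, as in the rest, the EP and EK lists differed by width, as a description of 1 list each. Of those narrower than the autosomal median EK kept more, with a difference (EP minus EK) of -4.79 percentage points. Of those at least that wide EP kept more, by 7.01 percentage points. The same differences in the rest were -4.33 and 8.61 percentage points. The 55 intervals kept in EP alone had a median width of 1779 bp and 32 were double-marked in wild type (58.2%, 45.0 to 70.3%). The 48 kept in EK alone had a median of 725.5 bp and 2 were double-marked (4.17%, 1.15 to 14.0%). In the rest the medians were 2021 and 768 bp, with 65.0 and 10.9% double-marked. The 139 kept in both had a median of 754 bp and the 947 kept in neither 1127 bp, against 778 and 1159 bp in the rest. The intervals of the mutants were shorter than the wild-type ones where those were broad. In the widest class the EP interval had a median of 0.446 times the wild-type width (46 intervals) and the EK interval 0.369 times (15 intervals). In the narrowest class (up to 767 bp) the ratios were 0.929 and 1.00, and 25 of 103 EK intervals had both borders identical to the wild-type ones.

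Autosomes differed in how many proximal intervals they held and how many were kept. Chromosome 17 held the most, 100, and chromosomes 3 and 7 the fewest, 25 each. The windows held 6.26 intervals per Mb against 7.50 in the rest and 5.99 in the next 10 Mb, and the density was below that of the rest of the same autosome in 15 of 19. Chromosome 14 held 43, the first of which started at position 7820169, so that the stretch before it carried none. The EP share was below that of the rest of the same autosome in 16 of 19, and the EK share in 12 of 19. Over all 19 the median EP difference was -3.10 percentage points. Leaving out each autosome in turn kept the EP difference between -4.10 and -3.34 percentage points, and every one of these 19 differences passed (Fisher's exact tests, highest adjusted p = 0.0286). Without chromosome 15 the EK difference was -2.97 percentage points and passed (Fisher's exact test, adjusted p = 0.0358).

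The lowest shares were on chromosome 14, where EP kept 2 of 43 (4.65%) and EK 1 (2.33%), against 19.5 and 17.9% in the rest of that chromosome. The highest were on chromosome 7, where each mutant kept 8 of 25 (32.0%, rest 19.9 and 15.8%). The mutants differed most on chromosome 15, with 12 of 71 kept in EP and 20 in EK, and on chromosome 16, with 14 of 98 and 6. With 25 to 100 intervals per autosome these shares were imprecise. The Wilson interval left out the share of the rest of the same autosome only on chromosomes 9 and 14 for EP and on 7, 14, 15 and 16 for EK.

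**Figure D4:**
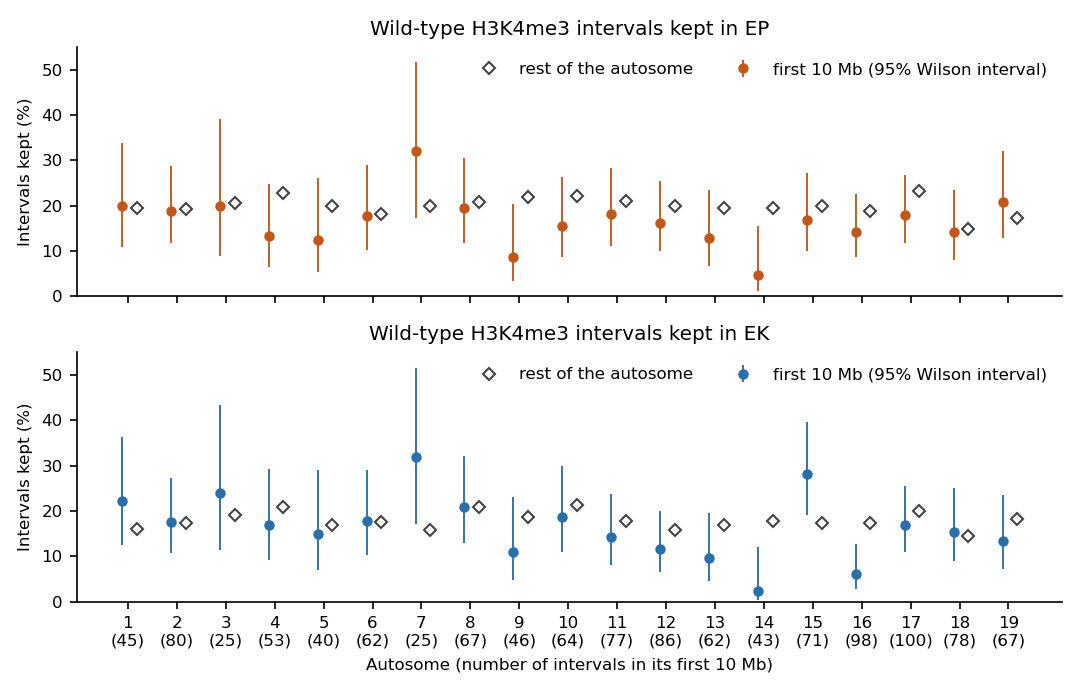
Share of wild-type intervals kept (percent) in EP (top) and EK (bottom) for each autosome, with the number of proximal intervals under each name, in the first 10 Mb (filled circles, 95% Wilson intervals as bars) and in the rest of the same autosome (open diamonds). Filled circles lie below the diamonds in 16 of 19 autosomes for EP and in 12 of 19 for EK, with chromosome 14 lowest and chromosome 7 highest.

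Double-marking in wild type was close to that elsewhere. Both marks were listed at 425 of the 1189 proximal intervals (35.7%, 33.1 to 38.5%), against a background of 37.5% and 37.6% in the rest. The difference of -1.83 percentage points (-4.61 to 1.03) did not pass (Fisher's exact test, adjusted p = 0.322), and it was 0.458 within deciles of width. All 425 double-marked intervals lay wholly inside an H3K4me3 interval. Against the distal 10 Mb, where 32.8% were double-marked, the proximal share was higher by 2.94 percentage points (-0.734 to 6.62) and did not pass (Fisher's exact test, adjusted p = 0.123). It passed without chromosome 1 (3.87 percentage points) or 12 (4.21 percentage points), by the same exact test. In wild type, double-marking followed width steeply, from 8.53% of the narrowest class (22 of 258) to 71.8% of the widest (140 of 195), as it did in the rest (8.99 to 71.5%).

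In the mutants few proximal intervals had both marks. EP listed 19 (1.60%, 1.03 to 2.48%, background 2.25%, rest 2.30%) and EK 12 (1.01%, 0.578 to 1.76%, background 1.33%, rest 1.35%). Neither difference from the rest passed (Fisher's exact tests, adjusted p = 0.231 and 0.464). With every list limited to its wider intervals the EP difference was -1.59 percentage points and passed (Fisher's exact test, adjusted p = 0.0271). With narrow wild-type intervals alone the sign turned, to 0.344 in EP and 0.214 in EK. As a share of the intervals each mutant kept, these were 9.79% in EP (6.36 to 14.8%, rest 11.5%) and 6.42% in EK (3.71 to 10.9%, rest 7.57%), also without a detectable difference (Fisher's exact tests, adjusted p = 0.631 and 0.668). In both mutants the sign of this difference turned with narrow wild-type intervals alone, for the first 5 Mb and within deciles of width. Both mutants listed 7 intervals, and 24 were double-marked in at least 1 of them. No background share was computed for either count, so they are a description only. Of the 425 intervals with both marks in wild type, EP kept 62 as H3K4me3 (14.6%, 11.5 to 18.3%) and 15 with both marks (3.53%, 2.15 to 5.74%), against 20.5 and 4.57% in the rest. EK kept 32 (7.53%, 5.38 to 10.4%) and 7 (1.65%, 0.8001 to 3.36%), against 11.7 and 2.36% in the rest. These differences from the rest were not tested. The other 764 proximal intervals were kept at 17.3% in EP and 20.3% in EK. The difference by wild-type double-marking was -12.8 percentage points in EK (-16.4 to -8.79, Fisher's exact test, adjusted p = 1.36e-08 over 6 tests), and the rest showed a similar split of -9.87 (11.7 against 21.6%). It was -2.69 in EP and did not pass (Fisher's exact test, adjusted p = 0.302), and its sign turned within deciles of width (3.24). The EK difference was -0.688 within deciles of width (Mantel-Haenszel test, n = 425 and 764 intervals, adjusted p = 0.740). In both mutants the sign also turned with wide wild-type intervals alone and with every list limited to its wider intervals.

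There were 5 proximal intervals with both marks in all 3 genotypes (0.421%, background 0.652%). The widest, on chromosome 12 at 3511792 to 3514844, lay 0.981 kb from Asxl2 (gene identifier 75302), a Polycomb-associated chromatin gene. The H3K4me3 interval there spanned 3053 bp in wild type but 1363 bp in EP and 1345 bp in EK, and the double-marked interval 2572, 1363 and 1345 bp. The next, on chromosome 17 at 9269819 to 9272360, lay outside annotated genes, 261.5 kb from the nearest protein-coding one. It narrowed from 2542 bp to 1318 bp (EP) and 1128 bp (EK). The other 3 were narrow intervals within genes. They lay in Bambi (68010), a decoy receptor of transforming growth factor β signalling, in Pitrm1 (69617), a mitochondrial peptidase, and in Pdp1 (381511), a phosphatase of the pyruvate dehydrogenase complex. The Bambi interval, on chromosome 18 at 3510719 to 3511521, shortened from 803 bp to 465 bp (EP) and 468 bp (EK). The Pitrm1 interval, on chromosome 13 at 6549516 to 6550122, was 607 bp in all 6 lists with the same borders. The Pdp1 interval, on chromosome 4 at 11962286 to 11962746, was 461 bp in wild type and 521 bp in both mutants. The widest 2 thus narrowed in the mutants, and of the other 3 only Bambi did.

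Some intervals were double-marked in a mutant and not in wild type, 4 in EP (0.336%, background 0.568%) and 5 in EK (0.421%, background 0.466%). The widest of these in EP and the second widest in EK was the same site, in Pag1 (94212), a membrane adaptor of Src-family kinases. Its H3K4me3 interval on chromosome 3 at 9782894 to 9783857 spanned 964 bp in wild type against 993 bp (EP) and 1045 bp (EK), with double-marked parts of 842 and 699 bp. The third in both lists lay in Elavl1 (15568), an RNA-binding protein gene, on chromosome 8 (4322440 to 4322983), where the 3 genotypes' intervals spanned 544, 545 and 558 bp. The second in EP was in Riok3 (66878), an atypical kinase gene, on chromosome 18 at 12130353 to 12131044, with an EP interval of 352 bp. The widest in EK, on chromosome 17 at 10197716 to 10200398, lay 6.07 kb from Qk (19317), which encodes an RNA-binding protein. It shortened from 2683 bp to 1652 bp (EP) and 1147 bp (EK), with both marks listed in EK only.

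The widest proximal interval of all was lost in both mutants. It lay on chromosome 9 at 6534501 to 6537978, 0.217 kb from Pdgfd (71785), a platelet-derived growth factor gene, and measured 3478 bp with a double-marked part of 1938 bp in wild type. The third widest, within Qk on chromosome 17 at 10278316 to 10281355, spanned 3040 bp in wild type and was kept at 1997 bp in EP and 1069 bp in EK without being double-marked in any genotype. The 3 intervals nearest a chromosome start were on chromosomes 3 (3052340 to 3053079), 1 (3125205 to 3126852) and 7 (3140350 to 3141720), and spanned 740, 1648 and 1371 bp. Neither mutant kept any of the 3, and the one on chromosome 7, within the pseudogene Speer9-ps1 (73949), was double-marked in wild type. The intervals on either side of the 13 Mb limit were on chromosomes 7 (12996965 to 12998452, kept in both mutants) and 18 (12990709 to 12991663, lost in both) just inside. Just outside were intervals on chromosomes 8 (13004586 to 13006300, double-marked in wild type) and 16 (13015778 to 13016714), both lost in both mutants.

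The widest intervals kept in 1 mutant alone differed in size between the mutants. In EP they measured 2574, 2482 and 2422 bp and overlapped Gdi2 and Tasor2 on chromosome 13 (3565574 to 3568147), the noncoding Gm33037 on chromosome 12 (8070199 to 8072680) and Snx29 on chromosome 16 (11602980 to 11605401). The EP intervals there were 970, 1085 and 1027 bp. In EK they measured 2131, 1188 and 1137 bp, on chromosomes 18 (10975417 to 10977547), 4 (12009454 to 12010641) and 8 (8460384 to 8461520). The EK intervals there were 796, 606 and 1135 bp.

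A majority of the proximal intervals lay within protein-coding genes. They were 675 of 1189 (56.8%, 53.9 to 59.6%), against 54.0% in the rest, a difference of 2.81 percentage points (-0.124 to 5.70) that did not pass (Fisher's exact test, adjusted p = 0.139). It passed for the first 5 Mb (6.59) and when chromosome 4, 6 or 12 was left out (Fisher's exact tests, differences of 3.82, 3.84 and 3.93 percentage points for the chromosomes). EP kept 17.8% of the intervals within genes and 14.4% of the others, EK 16.4% and 14.8%, and neither difference passed (Fisher's exact tests, adjusted p = 0.198 and 0.470). Over the first 20 Mb both passed, at 5.09 (EP) and 4.69 (EK) percentage points (Fisher's exact tests, adjusted p = 0.00469 and 0.00502). The EK difference turned its sign with wide wild-type intervals (-1.49), with every list limited to its wider intervals (-1.32) and without chromosome 15 (-0.202). In the rest the shares were 21.6 and 18.2% in EP and 18.9 and 16.6% in EK. The spans of 351 protein-coding genes held at least 1 proximal interval, and 24 held at least 5.

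The 17 proximal intervals at promoter windows were kept in EP more often than the others. EP kept 8 of 17 (47.1%, 26.2 to 69.0%), against 186 of 1172 (15.9%), a difference of 31.2 percentage points (10.2 to 53.3, Fisher's exact test, adjusted p = 0.00841). Without chromosome 19, which carried 4 of the 17, the difference was 22.7 and did not pass (Fisher's exact test, adjusted p = 0.0866). Within deciles of width it was 22.3 and did not pass either (Mantel-Haenszel test, n = 17 and 1172 intervals, adjusted p = 0.15). Nor did it pass for the first 5 Mb (20.4), with wide wild-type intervals (21.6) or with every list limited to its wider intervals (7.52), which left 11, 6 and 6 intervals at promoter windows. EK kept 6 of 17 (35.3%, 17.3 to 58.7%), against 15.4%, and the difference of 19.9 percentage points did not pass after adjustment (Fisher's exact test, adjusted p = 0.0762). Its sign turned with wide wild-type intervals alone and with every list limited to its wider intervals. In the rest, the shares at promoter windows were 34.2% in EP and 32.3% in EK (158 intervals). None of the 5 sites with both marks in all genotypes was among the 17. Of the 17, 7 were at protein-coding genes and 10 at long noncoding RNA genes, and 8 were kept in neither mutant. Beside the intervals at Tcirg1 and Calcr, whose sequences are printed above, the one just after a start site of the DNA methyltransferase gene Dnmt3a (chromosome 12, 3807177 to 3807706) was 530 bp wide in wild type, EP and EK alike. The one at Fth1, the ferritin heavy chain gene (chromosome 19, 9980394 to 9981046), shortened from 653 bp to 132 bp in EP and was lost in EK. The one at Skp2, an F-box protein gene (chromosome 15, 9154404 to 9155384), was kept in EK alone, at 821 of 981 bp. The only one double-marked in a mutant overlapped Cpped1 and the noncoding Gm9961 on chromosome 16 (11900989 to 11903302), 2314 bp wide in wild type and 603 bp in EP.

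Proximal intervals lay slightly farther apart than others, with a median gap to the nearest wild-type interval of 44.9 kb (18.3 to 93.8 kb), against 38.4 kb in the rest. Within 10 kb of another were 193 (16.2%, rest 18.8%), of which EP kept 18.1% and EK 17.6%, against 15.96 and 15.4% of the more isolated ones. The rest showed the same direction, with 22.3% (EP) and 18.8% (EK) against 19.6 and 17.7%, and these splits were not tested. In the windows, 2 of 195 EP intervals and 3 of 188 EK intervals overlapped no wild-type interval. No share over all autosomes was computed for these counts, so they are a description only. Both such EP intervals and 1 of the EK ones fell at a single place on chromosome 16 (4644969 to 4645475 in EK, 507 bp), within Coro7 and Vasn. The other EK intervals were on chromosomes 9 (5396099 to 5396664) and 14 (12885384 to 12885590). Coordinates are mm10, counted from 1.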

How the data were processed

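H3K4me3 and H3K36me3 chromatin immunoprecipitation libraries of mouse spermatocytes were studied through 6 peak lists. The 9 libraries fall into 6 groups by title. Per the labels' protocols, formaldehyde-fixed nuclei were digested with micrococcal nuclease. The protocol names only an anti-H3K4me3 antibody for every sample, while the antibody label of the H3K36me3 libraries names H3K36me3, which was followed. The design text calls fewer libraries earlier data than the titles do, and the titles were followed. The submitters' processing notes name Trimmomatic, BWA (0.7.9a) and MACS (1.4), without thresholds, and mm10. Per the file deposited with the lists, each holds detectable peaks at known PRDM9-dependent sites from an earlier series, and the H3K4me3 lists of wild type and EP were copied from that series. The values deposited by the authors are interval starts and ends, with no count, score or p-value, so depth is unknown.

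Python 3.11.15 with pandas 2.3.3 was used to read and overlap the lists. Shares have 95% Wilson intervals and their differences 95% Newcombe intervals. Comparisons used Fisher's exact and exact McNemar tests, both two-sided, from SciPy 1.17.1, at a threshold of 0.05. Differences within strata were estimated after Mantel and Haenszel with statsmodels 0.14.6. Adjustment was by Benjamini-Hochberg over 9 tests of proximal against rest, 3 of proximal against distal, 10 of width classes and 6 among proximal intervals. The last 2 families, and the comparison with the next 10 Mb alone, were chosen after the lists were seen, as were the sites at promoter windows. The distal 10 Mb were counted from the farthest coordinate in the lists or the gene table. Genes and promoters came from RefSeq tables of GRCm38.p6, the assembly that mm10 shares its chromosome coordinates with. Sites were otherwise named by a rule: double-marked in all genotypes, the widest, the nearest a chromosome start, the widest kept in 1 mutant alone, the widest double-marked in a mutant only, and those beside the limit. Members and lists were chosen with earlier results of these data known. The tests were checked on simulated data. Exons and introns were not analysed here.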

Additional observations from a re-analysis of the deposited data

How the results depend on the processing

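No paired analysis was possible because each genotype has 1 H3K4me3 list and 1 list of sites with both marks, and neither carries a replicate number. For the same reason no replicate could be left out, and autosomes were left out instead. Differences here are proximal minus other, in percentage points, and the cause of each change was not tested. Across 22 results and 31 settings, 576 of 656 alternatives kept direction and side of the threshold. Of these settings, 19 left out 1 autosome each and so shared most intervals with the main setting. The 576 include results that did not pass in either setting, so this count does not measure how stable the calls that passed were.

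The EP difference from the rest lost its call with narrow wild-type intervals alone (-2.13), the first 5 Mb (-3.62), the first 20 Mb (-2.40), within width deciles (-2.67) and against the next 10 Mb (-2.91). It ranged from -4.10 to -3.34 over left-out autosomes. The EK difference passed in every list limited to its wider intervals (-3.74) and with wide wild-type intervals (-4.52), and ranged from -2.97 to -1.32 over left-out autosomes. The width difference lost its call for the first 20 Mb (-1.94) and against the next 10 Mb (-5.69). In the widest class, EP and EK lost theirs for the first 5 Mb (-12.4 and -9.99), the first 20 Mb (-6.36 and -4.71) and against the next 10 Mb (-11.8 and -7.14).

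Against the distal 10 Mb, EP lost its call with narrow intervals (-3.47). EK lost it with midpoints at most 500 bp apart (-2.96), narrow intervals (-1.20), the first 5 Mb (-3.57), the first 20 Mb (-2.43), within autosomes (-3.14) and away from gene boundaries (-3.15), with -4.11 to -2.26 over left-out autosomes. Wild-type double-marking passed for the first 20 Mb (3.54), with 2.05 to 4.21 over left-out autosomes.

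Double-marking against the rest changed sign with narrow intervals in wild type (1.16), EP (0.344) and EK (0.214), within deciles in wild type (0.458), and for EK against the next 10 Mb (0.0435). EP passed in every list limited to its wider intervals (-1.59). Among kept intervals the sign changed in EP with narrow intervals (2.31), the first 5 Mb (1.58) and deciles (0.146), and in EK with narrow intervals (1.17), the first 5 Mb (0.463), deciles (0.293) and the next 10 Mb (0.889).

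The gene-span difference passed for the first 5 Mb (6.59), with 1.75 to 3.93 over left-out autosomes. EP against EK passed in every list limited to its wider intervals (4.98) and with wide intervals (7.01). It was -4.79 with narrow intervals, and -0.0917 to 1.34 over left-out autosomes. The EP-alone share reversed in these 3 settings (3.20, 2.73 and 2.11) and within deciles (2.92), with -12.6 to -3.58 over left-out autosomes. Among proximal intervals, the split by wild-type double-marking reversed in EP (13.7, 5.92 and, within deciles, 3.24) and EK (4.63 and 1.28) in every list limited to its wider intervals and with wide intervals. So did the EK splits by gene span (-1.32 and -1.49, with -0.202 to 3.16 over left-out autosomes and the lowest without chromosome 15) and promoter window (-4.29 and -5.04). Width-class results were not run where the setting itself restricts width. The unknown depth, and 12 to 19 double-marked intervals per mutant, limit what could be detected.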
